A study of Bos taurus with 4 samples.

Results

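Translation factors and aminoacyl-tRNA synthetases were examined in granulosa cells of cows rated as poor or good donors of competent oocytes. The genes were taken by symbol from the platform's annotation, as the eIF1 to eIF6 initiation factor symbols without EIF2AK2, the eEF1 and eEF2 elongation factor symbols, and the synthetase symbols of the form AARS to YARS with their mitochondrial forms. This gave 84 of the 15229 annotated gene symbols, on 127 of the 43794 probes. Granulosa cells of 94 Holstein cows from a commercial embryo production unit had been collected after ovarian stimulation and a coasting period. The RNA came from 4 pools of poor donors (pools 5 to 8) and 4 pools of good donors (pools 1 to 4), and both groups had received the stimulation. Each of 4 two-colour arrays set 1 poor-donor pool against 1 good-donor pool, as pool 5 against 1, 6 against 2, 7 against 3 and 8 against 4 on arrays 1 to 4. The poor-donor pools were in Cy3 on arrays 1 and 2 and in Cy5 on the other two. The labels say neither which cows entered a pool nor how old they were, so pools and not cows served as replicates. The p-values of the main fit rest on the spread of the ratios within each dye orientation, moderated over all kept probes. They leave out the shift between arrays 1 and 2 and the other two.

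Translation starts when eIF2 brings the initiator tRNA to the small ribosomal subunit, eIF3 holds the complex together, and the eIF4 proteins recruit the capped mRNA. The eEF1 factors then bring charged tRNAs to the ribosome, eEF2 moves it along the message, and the synthetases charge each tRNA with its amino acid. Phosphorylation of eIF2 by stress kinases, or sequestration of eIF4E by its binding proteins, is the usual brake on initiation, and much of this control acts on proteins rather than on transcripts. Granulosa cells of a large follicle make much protein, including steroidogenic enzymes and inhibin subunits.

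A probe's ratio is given on the log2 scale as poor over good donors, and its level as the log2 brightness of 1 pool after normalization. Levels compare pools for 1 probe and not 1 gene with another. In bulk pools, fewer cells of a type and less RNA per cell cannot be told apart. A probe was kept where every one of the 4 pools of poor or of good donors exceeded background, and 77 of the 84 genes kept a probe. Those without one were EEF1A2, EIF1AY, EIF4E1B, EIF5A2 and PARS2 and the genes listed as EIF2C1 and EIF2C2. EIF2C1, EIF2C2 and EIF2C3 are old symbols of the argonaute genes AGO1, AGO2 and AGO3, which act in RNA silencing and are not initiation factors. AGO3 was kept, with a mean ratio of 0.06 ± 0.06 (SD, n = 4 arrays), and is left out of the classes below. Every kept gene was detected in some pool of each group. EIF4G3 was above background in 4 poor-donor and 2 good-donor pools, and AGO3 and CARS2 each in 4 and 3. These genes passed the filter only through the poor-donor group, and their ratios against an undetected pool are bounds.

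Of all probes, 64.3% to 69.0% were detected in poor-donor pools and 66.0% to 72.7% in good-donor pools. Of 7 granulosa markers 6 were above background in all 8 pools, as were all 5 leukocyte markers and all 5 theca and stroma markers. The theca marker CYP17A1 was close to background, at 6.41 to 6.51 in poor-donor pools and 6.43 to 6.48 in good-donor pools. Of 3 oocyte markers 2, and of 3 endothelial markers 0, were above background in all 8 pools. Of 3 oviduct and surface epithelium markers 2 were above background in all 8 pools. The pools thus also held RNA of genes that mark leukocytes, stroma and epithelium. The leukocyte markers were dim, with mean log2 levels of 6.86 to 7.67 in poor-donor pools and 7.07 to 7.55 in good-donor pools. The theca and stroma markers CYP17A1, LUM, COL1A1, COL3A1 and ACTA2 had mean log2 levels of 9.79 to 10.25 in poor-donor pools. In good-donor pools the levels were 9.09 to 9.91. Values were higher in poor donors for 4 of the 5, most of all for LUM, with a mean ratio of 1.85 ± 1.25. The oviduct and surface epithelium markers OVGP1, KRT7 and KRT19 had mean log2 levels of 8.87 to 11.01 in poor-donor pools and 8.86 to 11.40 in good-donor pools. Their mean ratios were below 0 for all 3, but 0 of them kept 1 sign on all 4 arrays. OVGP1 had -4.54, 0.54, -0.29 and 2.55 on arrays 1 to 4, and KRT19 had -1.22 on array 2 and 0.05 on array 1. Of the granulosa markers, 6 of 7 had lower values in poor donors, with a median difference of -0.11. The part of other cells in the values below was not tested.

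None of the 77 genes passed an adjusted p of 0.05 with limma, whose fit held a dye term, against 0% of the 10959 genes tested. The smallest adjusted p among them was 0.821. Without adjustment, 5 of 77 genes had a p under 0.05, a limit that 6.98% of all genes tested and 5.97% of all probes reached. These were WARS1, TARS2, SARS2 and EIF4H, with higher values in poor donors as 3.08% of all genes had at that limit, and EEF1D, with a lower value as 3.9% had. The separate-channel fit also gave 0 genes past the adjusted limit, with 6 higher and 4 lower at an unadjusted p under 0.05 where 12% of all genes were. The looser counts changed when single arrays were left out, which also leaves fewer residual degrees of freedom for every gene. The dye term stayed in these fits, so the lone array of 1 dye orientation weighed as much as the other 2 together. There were 3 higher and 5 lower without array 1, 8 and 2 without array 2, 1 and 2 without array 3, and 1 and 0 without array 4. The shares of all genes in these fits are not given here, so the changes cannot be read as particular to the translation genes. No gene differed by 1.5-fold, a size that 0.757% of all genes reached. The half-width of the 95% interval had a median of 0.23 over the genes, or 1.18-fold, and these intervals do not include the change between dye orientations.

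By sign alone, 46 of the 77 genes had higher and 31 lower values in poor donors, where 50.3% of all genes had higher values. The 46 include AGO3, EIF4G3 and CARS2, which passed the filter only through the poor-donor group. The median difference was 0.02, against 0.0007 over all genes. The same sign on all 4 arrays was found for 6 genes with higher values, as for 5.64% of all genes (WARS1, HARS1, TARS2, EIF2A, EIF4E2 and EIF2AK3) and for 6 with lower values, as for 6.05% of all genes (NARS1, MARS2, EEF2, EIF3CL, EIF3K and EIF4EBP2). These are 15.6% of the genes, where 11.7% of all genes kept 1 sign. The levels of the donor groups did not overlap for 2 of the 77 genes, EIF4E2 and NARS1, where this held for 2.58% of all genes. The median SD of a gene's ratio over the arrays was 0.23 for the translation genes and 0.22 for all genes.

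**Figure D1:**
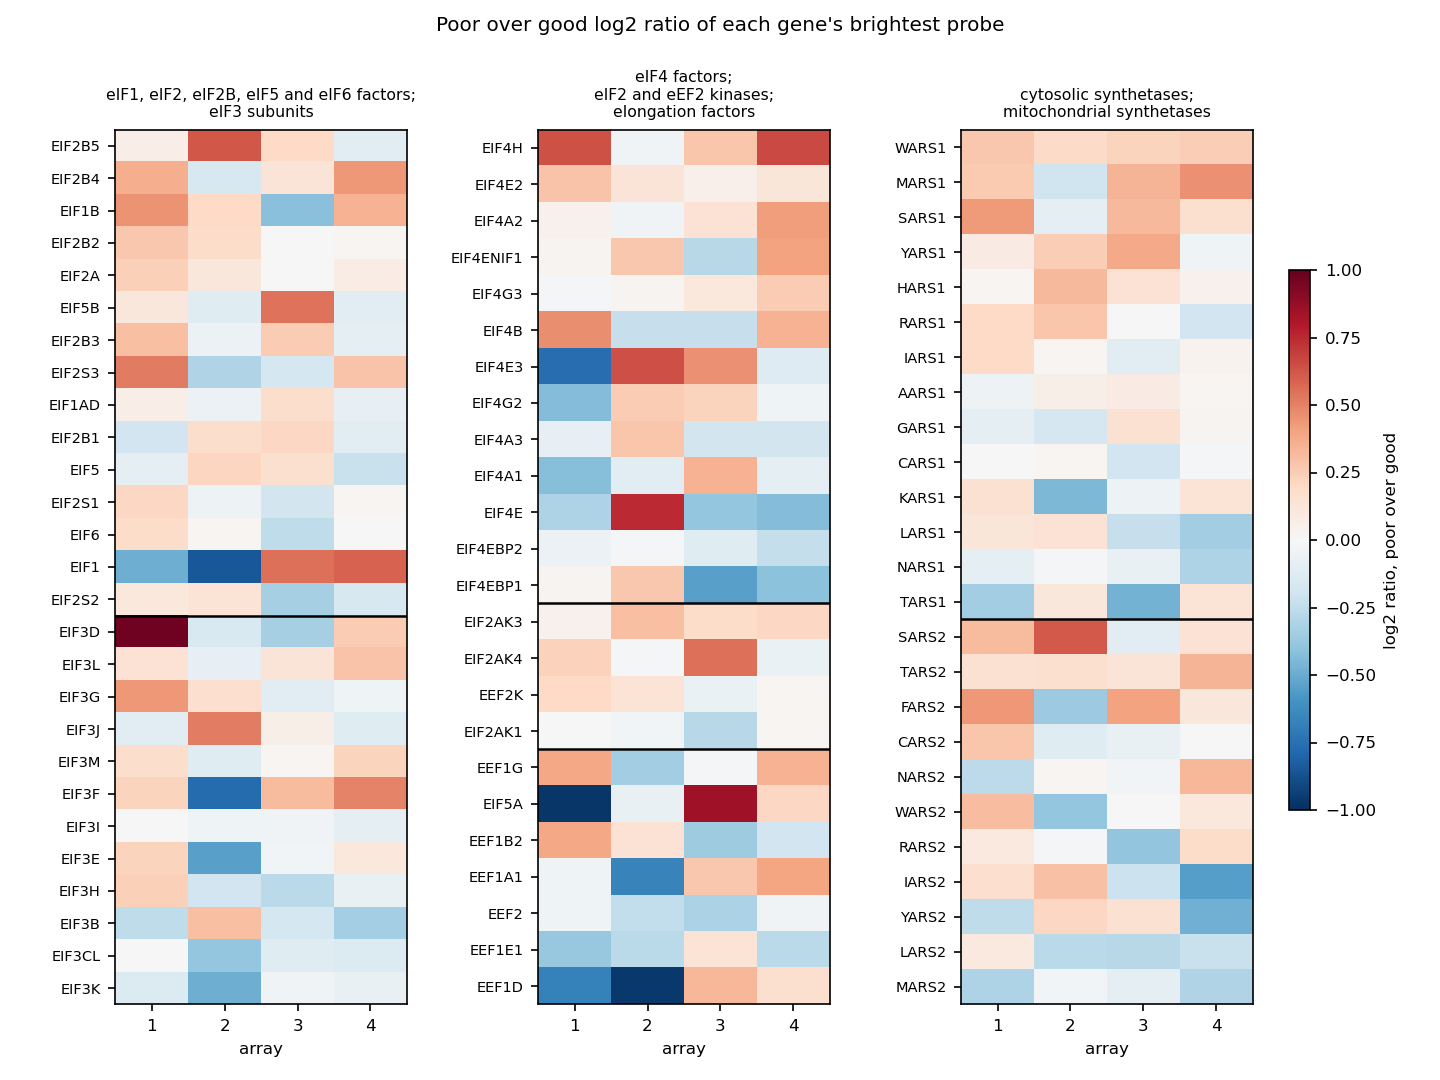
Log2 ratio of poor over good donors (colour) on arrays 1 to 4 (columns) for the brightest probe of each of 76 translation genes (rows), by class and sorted by mean. WARS1 and TARS2 were above 0 on all 4 arrays, while EIF1, EIF4E and EIF3F changed sign between arrays.

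Among the factors of the initiation complex, the 15 kept eIF1, eIF2, eIF2B, eIF5 and eIF6 genes had 12 higher and 3 lower values, with a median difference of 0.08, and none passed the test. The eIF2B complex, which exchanges GDP for GTP on eIF2, had higher values for all 5 of its subunits, from 0.02 in EIF2B1 to 0.19 in EIF2B5, each with an adjusted p of at least 0.836. EIF2B5, the catalytic subunit, had levels of 9.68, 9.36, 9.85 and 9.70 in poor-donor pools 5 to 8, against 9.61, 8.74, 9.65 and 9.81 in good-donor pools 1 to 4. Its ratio was 0.19 ± 0.31 (SD, n = 4; adjusted p = 0.855), and good-donor pool 2 was the lowest of all 8 pools. It was 0.06 without array 2. A second EIF2B5 probe gave 0.20 and a dim one -0.06, and this dim probe was below 0 on all 4 arrays. EIF2B2, the beta subunit, had ratios of 0.27, 0.18, -0.003 and 0.02 by array, averaging 0.12 ± 0.13 (SD, n = 4; adjusted p = 0.836). Its other probes gave 0.15 and -0.02.

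The eIF2 trimer itself showed no common direction. EIF2S1, the alpha subunit that stress kinases phosphorylate, had levels of 11.14, 11.26, 11.06 and 11.32 in poor-donor pools and 10.93, 11.30, 11.24 and 11.30 in good-donor pools. Its mean ratio was 4.81e-05, with an SD of 0.16 over the 4 arrays and a 95% interval of -0.22 to 0.22. The beta and gamma subunits EIF2S2 and EIF2S3 had ratios of -0.06 ± 0.22 and 0.08 ± 0.39. EIF2A, an alternative carrier of initiator tRNA, was above 0 on all 4 arrays at 0.11 ± 0.10 (SD, n = 4; adjusted p = 0.847), though by only 0.006 on array 3. EIF6, which keeps the large ribosomal subunit from joining too early, had a ratio of -0.01 ± 0.18 with 0.18 on array 1 and -0.25 on array 3. A second, dimmer EIF6 probe had a mean of 0.09 and 0.41 on array 3.

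EIF1, which guards start codon selection, was the most variable gene of this class. Its levels were 14.73, 14.38, 15.14 and 15.15 in poor-donor pools 5 to 8 and 15.22, 15.22, 14.59 and 14.56 in good-donor pools 1 to 4. The pools thus fell into those in Cy5 (pools 7, 8, 1 and 2), all between 15.14 and 15.22, and those in Cy3 (pools 5, 6, 3 and 4), all between 14.38 and 14.73, and not into donor groups. The mean ratio was -0.05 ± 0.73 (SD, n = 4; adjusted p = 0.957), with a dye coefficient of 0.62 (unadjusted p = 0.00124, adjusted p = 0.234 in the limma fit). A second, dimmer EIF1 probe gave 0.43, 0.10, -0.04 and 0.41 on arrays 1 to 4 and did not follow this split. Dye and pool pair cannot be told apart in this design.

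The eIF3 scaffold had 6 subunits with higher and 6 with lower values of the 12 measured, a median difference of 0.01, and no call. The sign of that median was not stable, at -0.07 without array 1, 0.08 without array 2 and -0.06 with median centring. EIF3A, its largest subunit, had no probe under that symbol and was not analysed here. EIF3K, a non-core subunit, had levels of 13.84, 13.65, 14.13 and 14.04 in poor-donor pools and 13.98, 14.13, 14.17 and 14.12 in good-donor pools. Its ratio was below 0 on all 4 arrays at -0.18 ± 0.21 (SD, n = 4; adjusted p = 0.83). Array 2 gave -0.49 and the others -0.13 or closer to 0. EIF3CL, annotated on the platform as the core subunit EIF3C, had -0.01, -0.39, -0.12 and -0.14 by array, averaging -0.16 ± 0.16 (adjusted p = 0.836). Its second probe gave -0.11, and good-donor pool 2 was its highest pool. EIF3D, a subunit that can bind the cap of some messages, had the widest spread of the complex, at 0.18 ± 0.58, and this rested on poor-donor pool 5 with a level of 12.47 against 11.48 to 11.81 in the other poor-donor pools and 11.50 to 11.97 in good-donor pools. Its fitted difference was -0.10 without array 1. By contrast EIF3I stayed between -0.09 and 0.002 on the 4 arrays, although its second probe had a mean of 0.16 and levels that did not overlap between the donor groups.

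EIF3F was singled out after its values were seen, because 4 kept probes measured it. The brightest had levels of 13.69, 13.29, 13.58 and 13.98 in poor-donor pools and 13.47, 14.05, 13.26 and 13.48 in good-donor pools, with good-donor pool 2 the highest and poor-donor pool 6 and good-donor pool 3 the lowest. Its ratios were 0.22, -0.77, 0.32 and 0.50 on arrays 1 to 4. Of the 3 other probes, 2 gave 0.60, -0.62, 0.16 and 0.62 and 0.55, -0.63, 0.22 and 0.62, the same order of signs. The dimmest gave 0.62, -0.23, -0.29 and 0.38, with array 3 below 0. All 4 probes were below 0 on array 2 and above 0 on arrays 1 and 4, and their means ran from 0.07 to 0.19.

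The eIF4 group, whose main factors select capped mRNA, had 8 genes with higher and 5 with lower values of 13. The median difference was 0.05, and it was -0.12 without array 2 and -0.05 without array 3. The group also holds genes that restrain translation, such as EIF4EBP1 and EIF4E2, so the count gives no direction for cap selection. EIF4H, a cofactor of the RNA helicase eIF4A, had the largest difference of all 77 genes, with levels of 8.27, 8.00, 8.07 and 8.03 in poor-donor pools and 7.63, 8.04, 7.80 and 7.38 in good-donor pools. The groups overlapped through good-donor pool 2, which lay above poor-donor pools 6 and 8. Its ratio was 0.38 ± 0.33 (SD, n = 4; adjusted p = 0.83, unadjusted p = 0.0478 in the limma fit), or 1.30-fold, with -0.03 on array 2. It was 0.22 without array 1, 0.55 without array 2 and 0.21 with the mean of its probes. A second, dimmer EIF4H probe gave 0.21, 0.50, -0.24 and -0.31, with a mean of 0.04, so the difference was not shared by both probes.

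EIF4E2, the cap-binding homologue 4EHP that represses chosen messages, was measured by 3 kept probes with means of 1 sign. Its brightest probe had levels of 11.02, 10.98, 10.90 and 10.97 in poor-donor pools and 10.73, 10.85, 10.85 and 10.85 in good-donor pools, without overlap, and good-donor pool 1 was the lowest. The ratio was 0.15 ± 0.10 (SD, n = 4; adjusted p = 0.83), or 1.11-fold. A second probe gave 0.31, 0.14, 0.12 and 0.14, also above 0 on all arrays, and the other had 0.40, -0.01, 0.10 and -0.09, with means of 0.18 and 0.10. None of the 3 probes passed the adjusted threshold. The eIF4A helicases, which unwind the message, had ratios of -0.07 ± 0.32 for EIF4A1, 0.14 ± 0.20 for EIF4A2 and -0.04 ± 0.22 for EIF4A3, the last of which belongs to the exon junction complex.

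EIF4E, the main cap-binding protein, varied widely between pools. Its levels were 9.34, 9.83, 9.12 and 8.99 in poor-donor pools 5 to 8 and 9.65, 9.09, 9.51 and 9.42 in good-donor pools 1 to 4. Poor-donor pool 6 was the highest and pool 8 the lowest of all. The ratio was 0.74 on array 2 and between -0.43 and -0.31 on the other arrays. Its mean was -0.10 ± 0.56 (SD, n = 4; adjusted p = 0.96). The fitted difference was 0.17 without array 1 and -0.36 without array 2. In each of these fits the remaining array of that dye orientation weighed as much as arrays 3 and 4 together. A second probe followed the same pattern with -0.32, 0.53, -0.25 and -0.36, while the dimmest of the 3 gave 0.13, 0.46, 0.31 and 0.01. EIF4E3, another family member, also spread widely, with levels of 7.54, 8.59, 8.67 and 8.48 in poor-donor pools and 8.29, 7.95, 8.21 and 8.61 in good-donor pools and a ratio of 0.05 ± 0.63. Poor-donor pool 5 was the lowest there, and the fitted difference was 0.40 without array 1 and -0.30 without array 2.

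EIF4EBP1, the mTOR-controlled protein that sequesters eIF4E, had levels of 7.37, 7.31, 6.75 and 7.13 in poor-donor pools and 7.34, 7.04, 7.29 and 7.54 in good-donor pools. It was above 0 on arrays 1 and 2 and below 0 on arrays 3 and 4, with a mean of -0.16 ± 0.38 (SD, n = 4; adjusted p = 0.83) and a dye coefficient of -0.31. Its paralogue EIF4EBP2 had -0.06, -0.01, -0.12 and -0.24, all below 0, and a mean of -0.11 ± 0.10. EIF4G1, the scaffold that joins cap and helicase, had no probe under that symbol and was not analysed here. Its relatives EIF4G2 and EIF4G3 had 0.0004 ± 0.32 and 0.09 ± 0.12, and EIF4G3 was above background in only 2 good-donor pools.

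**Figure D2:**
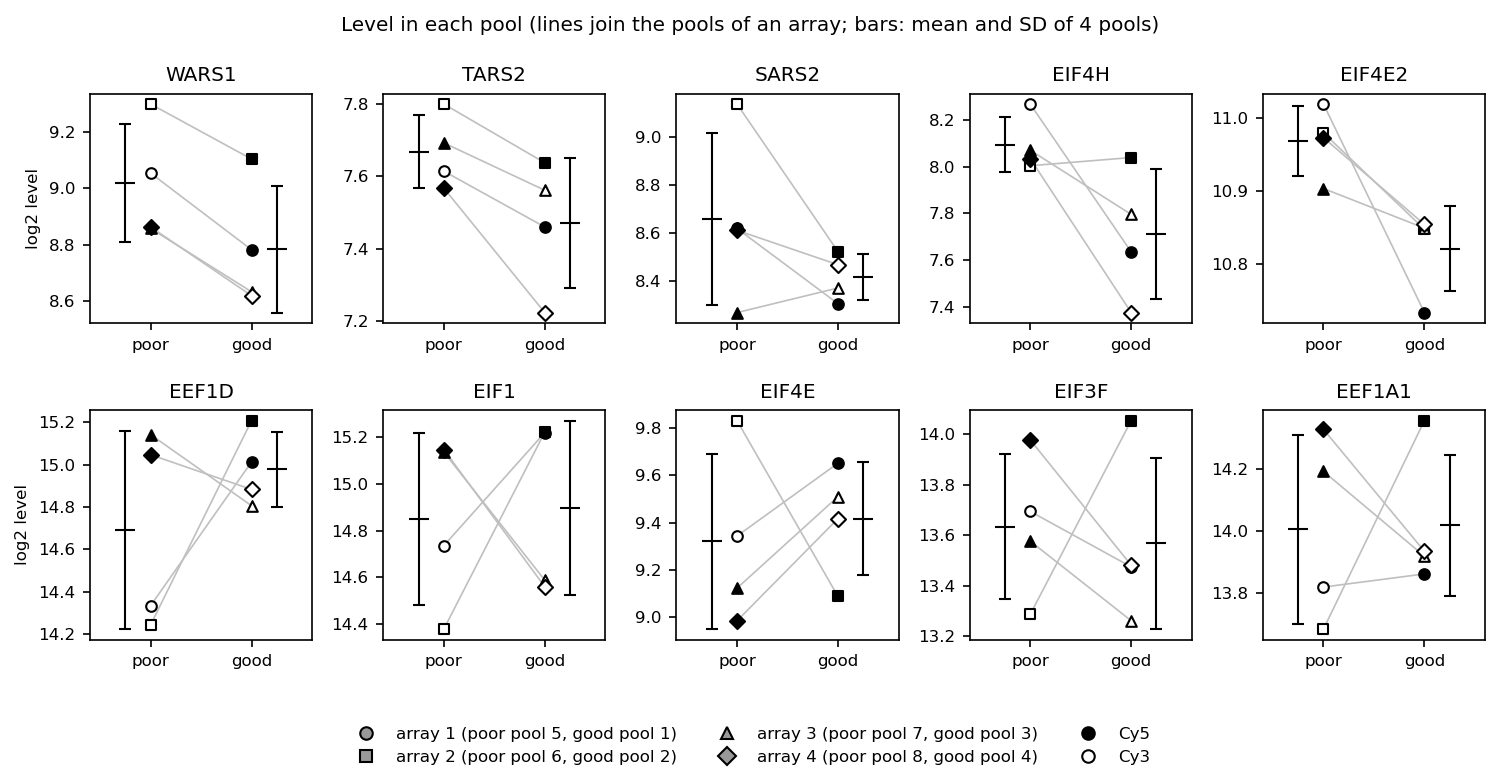
Log2 level of 10 translation genes in each poor-donor pool (left) and good-donor pool (right), with a line joining the 2 pools of an array, filled symbols for Cy5, open symbols for Cy3, and the mean and SD of each group's 4 pools beside the points. WARS1 and TARS2 were higher in the poor-donor pool on each array although the groups overlap, and EIF1 separates by dye.

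The kinases that slow translation had small differences. EIF2AK3, the PERK kinase of endoplasmic reticulum stress, had levels of 7.77, 7.89, 7.97 and 7.92 in poor-donor pools and 7.73, 7.59, 7.79 and 7.72 in good-donor pools. The groups overlapped only through poor-donor pool 5 and good-donor pool 3, and the ratio was above 0 on all arrays, at 0.18 ± 0.11 (SD, n = 4; adjusted p = 0.83), or 1.13-fold. EIF2AK4, the GCN2 sensor of uncharged tRNA, had 0.23, -0.02, 0.55 and -0.07 by array, averaging 0.17 ± 0.28 (adjusted p = 0.877), which was 0.02 without array 3. EIF2AK1, the haem-regulated kinase, was at -0.07 ± 0.14, and EEF2K, which inactivates eEF2, at 0.07 ± 0.12 with ratios of 0.20, 0.14, -0.06 and 0.02. The median of these 4 genes was 0.12, and 0.06 without array 3.

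The elongation factors had 2 genes with higher and 5 with lower values of 7, with a median difference of -0.01. That median was -0.17, -0.11, -0.09 and -0.04 when arrays 1, 2, 3 and 4 were left out in turn, and -0.10 with median centring. EEF1D, the delta subunit of the exchange factor that recharges eEF1A, had levels of 14.33, 14.24, 15.14 and 15.05 in poor-donor pools 5 to 8, against 15.01, 15.21, 14.81 and 14.88 in good-donor pools 1 to 4. Poor-donor pools 5 and 6 were lowest, and poor-donor pools 7 and 8 lay within the good-donor range. The ratios were -0.68, -0.96, 0.34 and 0.16 by array, averaging -0.29 ± 0.63 (SD, n = 4; adjusted p = 0.821, unadjusted p = 0.0212 in the limma fit). The dye coefficient in that fit was 0.53, so its p leaves out the shift between the first pair of arrays and the second. EEF1E1, which is also a scaffold of the multi-synthetase complex, had -0.20 ± 0.23 (adjusted p = 0.83) with 0.14 on array 3, and its second probe gave 0.06. The beta and gamma subunits EEF1B2 and EEF1G had ratios of -0.001 ± 0.33 and 0.09 ± 0.34, and EEF1G was -0.35 on array 2.

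EEF2, the translocase, was below 0 on all 4 arrays. Its levels were 13.75, 13.57, 13.31 and 13.41 in poor-donor pools and 13.80, 13.82, 13.63 and 13.45 in good-donor pools, which overlap, and its ratio was -0.16 ± 0.14 (SD, n = 4; adjusted p = 0.832). A second EEF2 probe had the same mean of -0.16 but ranged over 0.55, -0.38, -0.84 and 0.02. EEF1A1, which delivers charged tRNA to the ribosome, had levels of 13.82, 13.68, 14.19 and 14.33 in poor-donor pools and 13.86, 14.35, 13.92 and 13.93 in good-donor pools, with poor-donor pool 8 and good-donor pool 2 the highest. Its ratio was -0.67 on array 2 and its mean -0.01 ± 0.48, and the second probe agreed on array 2 with -0.65 but not on array 1, with 0.83 against -0.04. EIF5A, the hypusine-bearing factor that helps ribosomes through hard sequences, had the largest SD of all members, at 0.002 ± 0.76, with levels of 9.41, 10.02, 10.35 and 10.24 in poor-donor pools and 10.38, 10.10, 9.50 and 10.04 in good-donor pools. Poor-donor pool 5 and good-donor pool 3 were its lowest, and its fitted difference was 0.23 without array 1 and -0.22 without array 2. The ratios of this EIF5A probe were -0.97, -0.08, 0.85 and 0.21 on arrays 1 to 4. A second, dimmer EIF5A probe gave 0.22, 0.02, -0.02 and -0.09, so the wide spread was not shared by both probes.

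On array 2 the elongation factors had a median ratio of -0.27, against -0.04, 0.14 and 0.16 on arrays 1, 3 and 4. Their mean level was 12.32 in poor-donor pool 6 and 12.67 in good-donor pool 2, which was the highest of the 8 pools. Cytosolic ribosomal protein genes, 63 in number, had a median of -0.55 on array 2 and of 0.08, 0.20 and 0.38 on arrays 1, 3 and 4, and mean levels of 13.24 in poor-donor pool 6 and 13.83 in good-donor pool 2. Over all genes the array medians lay between -0.0066 and 0.01. Below -0.2 on array 2 were 5 of 7 elongation factors and 4 of 12 eIF3 subunits, against 1 of 13 eIF4 genes, and 2227 of all 10959 genes. The part of the ribosomal protein pattern in these ratios was not tested. Other members below -0.4 on array 2 included EIF3E at -0.54, KARS1 at -0.45 and EIF1 at -0.84.

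The dye term reached an unadjusted p under 0.05 for 9 of the 77 genes, where 11.5% of all genes did, and an adjusted p under 0.05 for 0 genes. Of the 7 elongation factors 4 were among them, EEF1D, EEF1A1, EEF1B2 and EIF5A. The others were EIF1, EIF2S2, EIF4EBP1, LARS1 and IARS2. Of the 63 ribosomal protein genes, 26 (41.3%) reached that limit for dye.

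**Figure D3:**
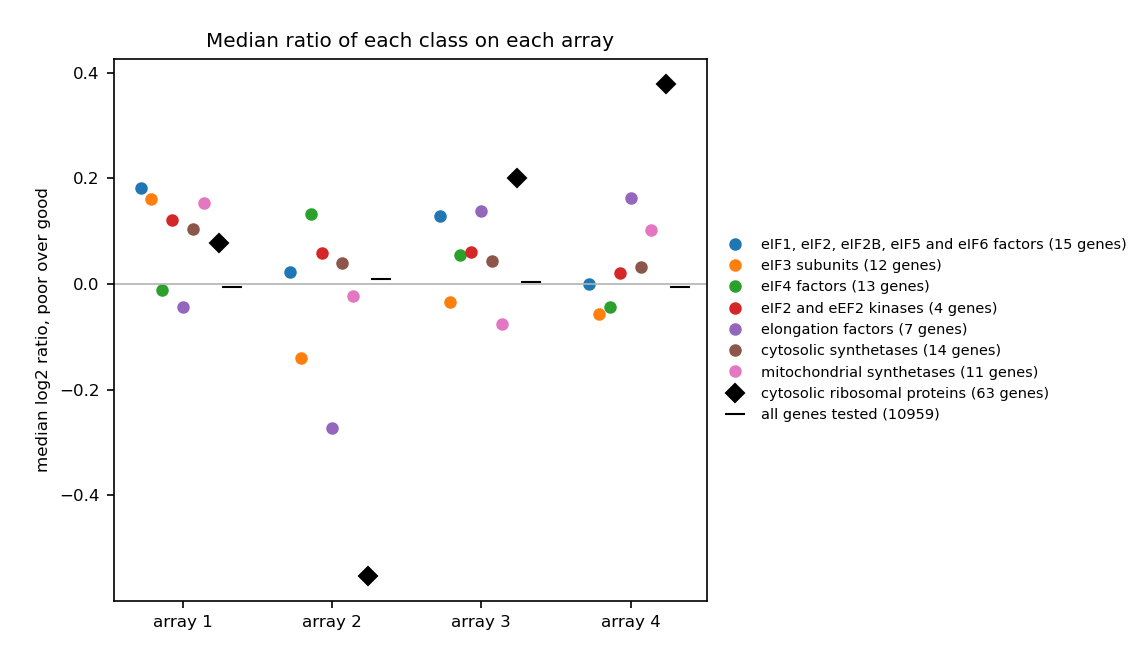
Median log2 ratio of poor over good donors (vertical axis) on each array for 7 classes of translation genes (circles), for 63 cytosolic ribosomal protein genes (diamonds) and for all genes tested (dashes). The elongation factors and the ribosomal protein genes had their lowest medians on array 2, at -0.27 and -0.55, while the synthetase medians lay between -0.08 and 0.15.

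The synthetases of the cytosol that the symbol pattern matched had 8 genes with higher and 6 with lower values of 14. Their median difference was 0.03, with array medians of 0.03 to 0.10. WARS1, the tryptophanyl-tRNA synthetase, which interferon is known to induce, had levels of 9.05, 9.30, 8.86 and 8.86 in poor-donor pools 5 to 8, against 8.78, 9.10, 8.63 and 8.62 in good-donor pools 1 to 4. The poor-donor pool was the higher on every array, although pools differed more between arrays than within them and the groups overlapped. Its ratios of 0.27, 0.19, 0.22 and 0.24 gave 0.23 ± 0.03 (SD, n = 4; adjusted p = 0.821, unadjusted p = 0.0162 in the limma fit), or 1.18-fold. Only 0.520% of all genes had a smaller SD over the arrays. A second kept WARS1 probe, close to background in brightness, gave 0.17, 0.37, -0.30 and -0.39, with a mean of -0.04. The mean of both WARS1 probes gave 0.10.

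MARS1, the methionyl-tRNA synthetase, had levels of 8.89, 8.67, 8.86 and 9.05 in poor-donor pools and 8.63, 8.87, 8.53 and 8.60 in good-donor pools. It was above 0 on 3 arrays and -0.20 on array 2, at 0.21 ± 0.29 (SD, n = 4; adjusted p = 0.83), with good-donor pool 2 within the poor-donor range. It was 0.10 without array 1 and 0.33 without array 2. SARS1 and YARS1, for serine and tyrosine, had 0.20 ± 0.23 and 0.17 ± 0.18, each with 1 array below 0. HARS1, for histidine, was above 0 on all arrays at 0.13 ± 0.14, with 0.33 on array 2 and at most 0.15 on the others.

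NARS1, the asparaginyl-tRNA synthetase, was the only kept synthetase whose donor groups did not overlap by its brightest probe, and was singled out for that after its values were seen. This probe had levels of 11.22, 11.23, 11.17 and 11.10 in poor-donor pools and 11.32, 11.25, 11.25 and 11.41 in good-donor pools, with the nearest values at 11.23 in poor-donor pool 6 and 11.25 in good-donor pools 2 and 3. The ratio was -0.13 ± 0.13 (SD, n = 4; adjusted p = 0.843), and the 2 other probes had means of -0.04 and 0.04. TARS1, for threonine, had the widest spread of the class at -0.14 ± 0.31, with -0.35, 0.11, -0.47 and 0.14 on arrays 1 to 4. AARS1, for alanine, and GARS1, which charges glycine in cytosol and mitochondria, had 0.03 ± 0.06 and -0.02 ± 0.14 (adjusted p = 0.969 and 0.978). AARS1 levels were 7.37, 7.36, 7.48 and 7.26 in poor-donor pools and 7.42, 7.30, 7.39 and 7.24 in good-donor pools, and the 95% interval of its difference was -0.14 to 0.20.

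The mitochondrial synthetases had 6 genes with higher and 5 with lower values of 11, with a median difference of 0.008, which was -0.05 without array 1 and 0.04 without array 3. TARS2, for threonine, had levels of 7.61, 7.80, 7.69 and 7.57 in poor-donor pools and 7.46, 7.64, 7.56 and 7.22 in good-donor pools. The poor-donor pool was the higher on each array, and the ratio was 0.20 ± 0.10 (SD, n = 4; adjusted p = 0.828, unadjusted p = 0.0427 in the limma fit), or 1.15-fold, with 0.34 on array 4 where good-donor pool 4 was lowest. The 2 other probes, both dim, had means of 0.04 and -0.10, and the probe at -0.10 was below 0 on all 4 arrays with no overlap of the donor groups. The mean of the TARS2 probes gave 0.05. SARS2, for serine, had levels of 8.62, 9.14, 8.27 and 8.61 in poor-donor pools and 8.30, 8.52, 8.37 and 8.47 in good-donor pools. Poor-donor pool 6 was the highest and pool 7 the lowest of all 8, and the ratio was 0.24 ± 0.30 (SD, n = 4; adjusted p = 0.83, unadjusted p = 0.0465 in the limma fit). IARS2, for isoleucine, had 0.17 and 0.30 with poor donors in Cy3 and -0.22 and -0.55 with poor donors in Cy5, averaging -0.08 ± 0.38. MARS2, for methionine, was below 0 on all arrays at -0.18 ± 0.14, and LARS2, for leucine, on arrays 2 to 4 at -0.17 ± 0.18.

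Several probes measured the same gene for 21 of the 77 genes, and their fitted differences shared a sign in 8 and differed in sign in 13. The genes with 1 sign were EEF2, EIF3CL, EIF3F, EIF4E2, EIF4EBP1, EIF4H, EIF5 and EIF5A. This compares fitted differences only, and the 2 EIF5A probes had opposite signs on each of the 4 arrays. Of the 5 genes at an unadjusted p under 0.05, WARS1, TARS2 and EIF4H had further kept probes, and none of those probes reached that limit.

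**Figure D4:**
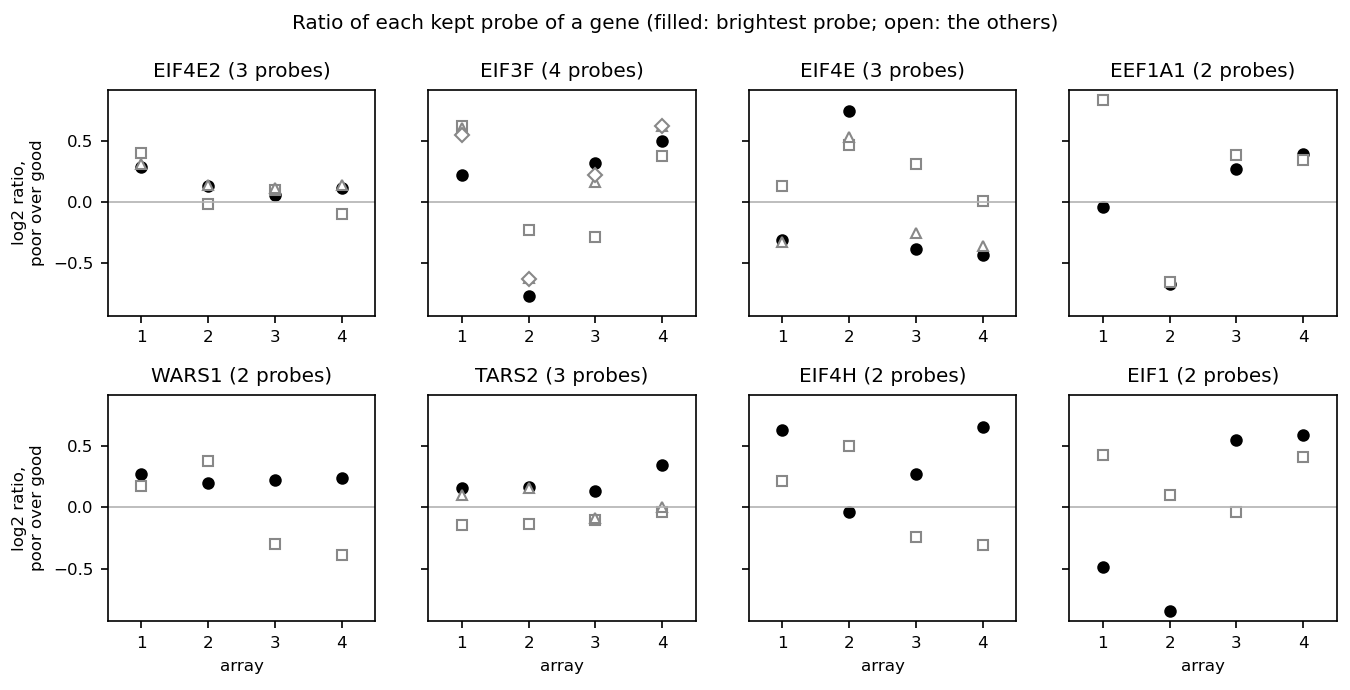
Log2 ratio of poor over good donors on arrays 1 to 4 for every kept probe of 8 genes, with the brightest probe filled and the others open. The probes of EIF4E2 and most of EIF3F lie together on each array, while the second probes of WARS1 (mean -0.04), EIF4H (mean 0.04) and EIF1 (mean 0.23) depart from the brightest.

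Other genes of the pathway, from lists in which 0 of the genes passed the adjusted threshold, were read beside these members. Of 9 mitochondrial translation factors 4 had higher and 5 lower values, with a median of -0.004. TUFM, the mitochondrial elongation factor that delivers charged tRNA, had levels of 11.63, 11.56, 11.72 and 11.99 in poor-donor pools and 11.29, 11.45, 11.27 and 11.50 in good-donor pools. These did not overlap, and the ratio was 0.35 ± 0.17 (SD, n = 4; adjusted p = 0.821, unadjusted p = 0.00631 in the limma fit). MTRF1, a mitochondrial release factor family member, had 0.20 ± 0.11 (adjusted p = 0.83, unadjusted p = 0.0484 in the limma fit), also without overlap, and its relative MTRF1L had -0.07 ± 0.05 with the poor-donor pools all lower. Release and recycling factors had 5 of 7 higher and a median of 0.02, and poly(A)-binding proteins and their partners 4 of 7 higher and a median of 0.01. A list of synthetase partners and of synthetases outside the symbol pattern had 3 of 8 higher and a median of -0.02. The synthetases in it were FARSA and FARSB, for phenylalanine, at -0.03 and -0.01, and TARS3, for threonine, at -0.27 ± 0.64. In the same list DTD1, which removes wrongly charged D-amino acids, was at -0.23 ± 0.13 and below 0 on all arrays (adjusted p = 0.821, unadjusted p = 0.0249 in the limma fit).

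Of 10 genes of mTOR signalling, which releases eIF4E from its binding proteins, 8 had higher and 2 lower values, with a median of 0.06. Of all genes tested 50.3% had higher values. The list mixes genes that drive the pathway with genes that restrain it, so the count gives no direction for mTOR signalling. Of the restraining genes, TSC2, TSC1 and AKT1S1 had 0.25, 0.13 and 0.02, and DDIT4 had -0.18. Of 11 genes of the ATF4 response, the program that eIF2 phosphorylation starts, 7 had higher values, with a median of 0.02. ATF4 itself had levels of 10.26, 9.94, 9.80 and 10.31 in poor-donor pools and 9.77, 9.52, 9.78 and 9.91 in good-donor pools and a ratio of 0.33 ± 0.21 (SD, n = 4; adjusted p = 0.821, unadjusted p = 0.0152 in the limma fit). Its target ASNS, asparagine synthetase, had 0.71, -0.79, 0.73 and -0.33 on arrays 1 to 4, with no common sign, and PSAT1, of serine synthesis, had -1.20, 0.08, 0.55 and -0.62. AARS1, GARS1 and WARS1, synthetases known as ATF4 targets, stood at 0.03, -0.02 and 0.23.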

How the data were processed

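Granulosa cell RNA of 4 poor-donor and 4 good-donor pools was amplified, labelled and hybridised in pairs to 4 two-colour bovine arrays, per the labels' protocols. The deposited scanner files hold the spot intensity and local background of both channels, on a linear scale, per the file headers. The deposited series table holds log2 ratios with no statement of how the authors normalized them; they ran poor over good and served as an alternative. With limma 3.58.1 in R 4.3.3, median intensities were corrected by normexp (offset 50) and normalized by loess (span 0.3), control and scanner-ignored spots having weight 0. A probe was kept where it exceeded the mean plus 2 SD of 153 negative controls in all 4 pools of a donor group, which left 26132 of 43794 probes, and 49 probes with an ignored spot were left out. Ratios were fitted with a dye term (2 residual degrees of freedom, prior 2.51), with Benjamini-Hochberg adjustment over all kept probes. A gene was represented by its brightest kept probe. Pool levels came from quantile normalization of average brightness between arrays. The arrays are areas of 1 slide, so no slide batch could be tested, and 4 arrays limit the precision.

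The platform annotation gave the symbols, of which 19 members' were updated from RefSeq. Members and gene lists were chosen with earlier results of these data known. Named were, in each of 7 classes, the 2 genes of smallest p and the gene of largest SD, with a fixed list of central factors; other genes were named after their values were seen. The fit was also run on data simulated from its own model, which cannot show how well that model holds for these pools. The alternatives changed the background correction, normalization, filter, dye term, probe summary and arrays used.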

Additional observations from a re-analysis of the deposited data

Results flagged for a closer look

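Among 90 sets of 4 values, the ratios or the levels of a donor group for each of the 30 genes named by rule, 5 held a value standing far from the other 3 by Dixon's criterion, where chance gives about 1 in 20. The EIF4E ratio was 0.74 on array 2, against -0.43 to -0.31 on the other arrays. The TARS2 ratio was 0.34 on array 4, against 0.13 to 0.16 on the others. EIF4E3 had a level of 7.54 in poor-donor pool 5, where the other poor-donor pools had 8.48 to 8.67. EIF4E2 had a level of 10.73 in good-donor pool 1, where the other good-donor pools had 10.85. EEF1A1 had a level of 14.35 in good-donor pool 2, where the other good-donor pools had 13.86 to 13.93.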

How the results depend on the processing

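Under 15 alternatives, 1 of them added after seeing the data (ignored spots kept), no translation gene passed the adjusted threshold. The genes at an unadjusted p under 0.05, 4 higher and 1 lower, became 2 and 1 with local background subtracted and with the deposited ratios, 2 and 4 with median centring, 5 and 2 with mean spot intensity, 6 and 1 with no filter, 3 and 0 without the dye term, 6 and 4 with separate channels and 1 and 1 with the mean of a gene's probes. Of all genes, 6.58% reached that limit with local background subtracted, against 6.98% in the main fit, and the share is not given for every alternative. Leaving out an array gave 1 to 8 higher and 0 to 5 lower. The class medians then ranged from 0.055 to 0.11 for the kinases, -0.17 to -0.04 for elongation, -0.07 to 0.08 for eIF3, -0.12 to 0.11 for eIF4, 0.05 to 0.09 for the eIF1, eIF2, eIF2B, eIF5 and eIF6 factors, -0.05 to 0.04 for mitochondrial and 0.02 to 0.05 for cytosolic synthetases. With mean spot intensity the kinase median was 0.070 and that of the cytosolic synthetases -0.00091. Of the 30 genes named by rule, 18 kept their sign in every alternative. Median centring turned EIF2S1 to -0.049 and EIF5A to -0.027. Mean spot intensity turned AARS1 to -0.030, EIF1 to 0.037, EIF2S1 to -0.0047 and EIF6 to 0.011. The mean of a gene's probes gave 0.089 for EIF1, 0.039 for EIF6, 0.011 for EIF4E and 0.11 for EEF1A1. Leaving out an array, signs turned for AARS1 (-0.00014 to 0.056), GARS1 (-0.052 to 0.010), TARS1 (-0.30 to 0.0087), EIF1 (-0.14 to 0.042), EIF2S1 (-0.063 to 0.063), EIF6 (-0.076 to 0.051), EIF3D (-0.10 to 0.47), EIF4E (-0.36 to 0.17), EIF4E3 (-0.30 to 0.40), EEF1A1 (-0.17 to 0.15), EIF5A (-0.22 to 0.23) and IARS2 (-0.16 to 0.0071). With an array left out, the dye term was kept, so the lone array of 1 dye orientation weighed as much as the other 2. A turned sign thus need not be the sign of the plain mean of the 3 arrays. The causes were not tested. Apart from the separate-channel alternative, the fits were made on within-array ratios, so the poor-donor and good-donor pools of an array were already paired.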
